A study of Rattus norvegicus with 6 samples.

Results

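Signalling by transforming growth factor beta (TGF-beta) and by bone morphogenetic proteins (BMPs) was followed through 47 genes, chosen by name as ligands, receptors, latent binding proteins, Smads, antagonists and direct targets, among 37203 genes in the count table. All 47 had a row, and 44 passed the filter on low counts. Secreted TGF-beta and BMP dimers bring type I and type II receptor kinases together, and the type I kinase phosphorylates receptor-regulated Smads, which enter the nucleus with Smad4. Smad2 and Smad3 serve TGF-beta, and Smad1, Smad5 and Smad9 serve BMPs. In bone, TGF-beta is stored in the matrix in a latent form and set free during resorption, and BMPs drive osteoblast differentiation.

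The libraries were made from total RNA of rat alveolar tissue, the part of the jaw that holds the teeth, during tooth movement. By title, 3 libraries are case (case 5, 6 and 9) and 3 are control (control 5, 6 and 10). In the source field, case is described as tooth movement without corticision and control as with corticision, a surgical cut through the cortical bone. This runs against the usual sense of the titles, so groups keep their title names, and a positive difference means higher in case. The sources used here do not give strain, age, sex, the force on the tooth or the time of sampling. Nor do they say that each library is a different animal, and p-values therefore reflect only the spread among these samples, which may be technical.

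Library totals were 10886303 to 14433740 counts, and the members took 0.284% to 0.364% of them. CPM here is the usual count scaled to library size, with that size adjusted by TMM (trimmed mean of M-values), and n = 3 in each group throughout. All 5 osteoblast markers were detected in every library, with summed levels of 42840 to 83910 CPM. Col1a1 alone gave 36040 to 74750 CPM of these sums. The markers cannot tell alveolar bone from other bone. Both libraries numbered 5 stood apart in tissue content. Their 8 tooth-forming cell markers summed to 459.6 CPM (case 5) and 89.8 CPM (control 5), against 0.64 to 7.79 CPM in the other 4 libraries, in each of which 3 or 4 of the 8 were at 0. Amelx alone gave 221.5 CPM of the case 5 sum. Not every marker followed the sums: in Amelx and Mmp20 control 5, at 0.613 and 0.263 CPM, lay below control 6, at 3.385 and 0.708 CPM. Control 5 also held 3488 CPM of the 6 oral epithelium markers in the table, against 13.9 to 44.6 CPM elsewhere, with 1 of the 6 at 0 in control 10. Results that rest on these libraries are given with and without them.

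The promoters of the 4 Id genes, of Tgfbi and of Bambi are shown because these genes are read as the output of the pathway. Ids are dominant-negative helix-loop-helix proteins induced by BMPs, Tgfbi is a matrix adhesion protein named for its induction by TGF-beta, and Bambi is a pseudoreceptor that restrains both branches. Each line gives the 250 bases before the annotated start of the gene, 5′ to 3′ on the gene's strand, from RefSeq (build GRCr8). The sources used here do not name the authors' build, and these sequences describe the genes, not the libraries. Capitals mark the motifs searched on both strands: CAGAC, the Smad box, and GGCGCC and GGAGCC, GC-rich Smad motifs of BMP-responsive genes. No marked bases overlap.
Id1, chr3:161671314-161671563, + strand: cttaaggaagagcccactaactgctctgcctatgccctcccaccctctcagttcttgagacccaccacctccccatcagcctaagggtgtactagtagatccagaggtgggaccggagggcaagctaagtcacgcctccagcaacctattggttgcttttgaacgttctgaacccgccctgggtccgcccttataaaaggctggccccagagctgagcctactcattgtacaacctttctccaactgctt
Id2, chr6:47470996-47471245, - strand: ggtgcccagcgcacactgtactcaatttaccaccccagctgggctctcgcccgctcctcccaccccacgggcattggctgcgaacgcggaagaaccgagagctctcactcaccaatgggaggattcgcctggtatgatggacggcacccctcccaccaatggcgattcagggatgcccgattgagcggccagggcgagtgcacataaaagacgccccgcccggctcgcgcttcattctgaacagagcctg
Id3, chr5:153656041-153656290, + strand: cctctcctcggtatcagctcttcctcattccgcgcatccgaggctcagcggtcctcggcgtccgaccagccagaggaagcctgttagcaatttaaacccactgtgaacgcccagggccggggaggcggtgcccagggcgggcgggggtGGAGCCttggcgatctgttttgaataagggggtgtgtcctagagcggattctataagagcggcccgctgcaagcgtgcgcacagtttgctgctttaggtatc
Id4, chr17:16598294-16598543, - strand: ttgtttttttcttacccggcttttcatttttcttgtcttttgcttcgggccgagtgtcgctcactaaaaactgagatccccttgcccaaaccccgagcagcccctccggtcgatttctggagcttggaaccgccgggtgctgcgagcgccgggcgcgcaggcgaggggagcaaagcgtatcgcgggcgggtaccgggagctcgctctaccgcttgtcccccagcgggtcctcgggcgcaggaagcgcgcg
Tgfbi, chr17:7990114-7990363, - strand: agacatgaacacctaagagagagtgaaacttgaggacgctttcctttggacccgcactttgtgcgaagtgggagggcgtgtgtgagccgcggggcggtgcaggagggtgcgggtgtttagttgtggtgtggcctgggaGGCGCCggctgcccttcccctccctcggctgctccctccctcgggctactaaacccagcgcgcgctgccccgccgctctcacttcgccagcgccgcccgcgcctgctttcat
Bambi, chr17:58821004-58821253, - strand: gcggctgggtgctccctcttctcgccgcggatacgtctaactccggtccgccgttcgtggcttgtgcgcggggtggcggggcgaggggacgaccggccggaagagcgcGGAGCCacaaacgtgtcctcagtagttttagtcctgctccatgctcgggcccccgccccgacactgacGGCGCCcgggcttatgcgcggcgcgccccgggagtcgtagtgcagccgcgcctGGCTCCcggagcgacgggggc

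Of the 47 members 38 matched a promoter by symbol. Members were counted by symbol, with 40 promoters for the 38. The backgrounds below were counted by promoter, with 11579 promoters for 10202 tested symbols. The 38 include Smad9, which was not tested and held GGCGCC. Within 250 bases before the start, GGCGCC was present for 12 of the 38 (31.6%), against 8.69% of all 33469 promoters in the table and 15.9% of the 11579 promoters of genes tested here. GGAGCC was likewise present for 12 of 38 (31.6%), against 23.0% and 32.6%. CAGAC was present for 8 of 38 (21.1%), against 42.9% and 42.7%. Member promoters were rich in G and C, with a median of 65.0% over 300 bases against 60.0% for tested genes and 51.7% for all promoters, and the part of that composition in the motif shares was not tested. In the sequences shown, Bambi held GGCGCC at 74 to 69 bases before the start and GGAGCC at 142 to 137 bases and, on the opposite strand, at 21 to 16 bases. Id3 held GGAGCC at 102 to 97 bases and Tgfbi held GGCGCC at 112 to 107 bases. The Id1, Id2 and Id4 windows held none of these letters, which says nothing about the factors.

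The first question was which members differed between case and control. None passed: edgeR's quasi-likelihood test called 0 of 44 members at a Benjamini-Hochberg adjusted p of 0.05, as it called 0 of all 16066 tested genes (0%), and DESeq2 also called 0 of 44, where it called 0.131% of the genes it gave an adjusted p. At an unadjusted p of 0.05 there were 2 members (4.55%), the receptor Acvr1 and the target Id4, both lower in case, beside 4.15% of all tested genes in either direction and 2.27% on the lower side. The groups did not overlap in 3 members (6.82%), Bmp5, Acvr1 and Acvrl1, each lower in case, beside 8.47% of all genes in either direction and 4.42% lower. Both counts are a few genes, and in either direction the shares lie near the background. The median log2 fold change of the members was -0.07, with 25 negative and 19 positive, against -0.02 over all genes. The count of 2 moved with single libraries. It was 9 without case 5 (20.5%, beside 9.54% of all genes) and 3 without control 5 (6.82%, beside 7.32%). It was 1 without case 6 (2.27%, beside 2.23%) and 0 without case 9 (beside 2.84%) or control 10 (beside 2.41%). Without control 6 it stayed at 2 (4.55%, beside 4.23%).

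The fit also gave the size of difference left within each interval. The 95% edgeR interval of the fold change lay within 2-fold in both directions for 31 of the 44 members (70.5%), beside 63.6% of all tested genes. Those 31 included all 3 TGF-beta ligands, all 4 latent binding proteins, all 5 tested Smads and all 5 feedback inhibitors. The 13 wider intervals belonged to 7 BMP and GDF ligands, the receptors Tgfbr3 and Bmpr1a, the antagonists Nog, Grem1 and Chrdl1, and Id4.

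**Figure D1:**
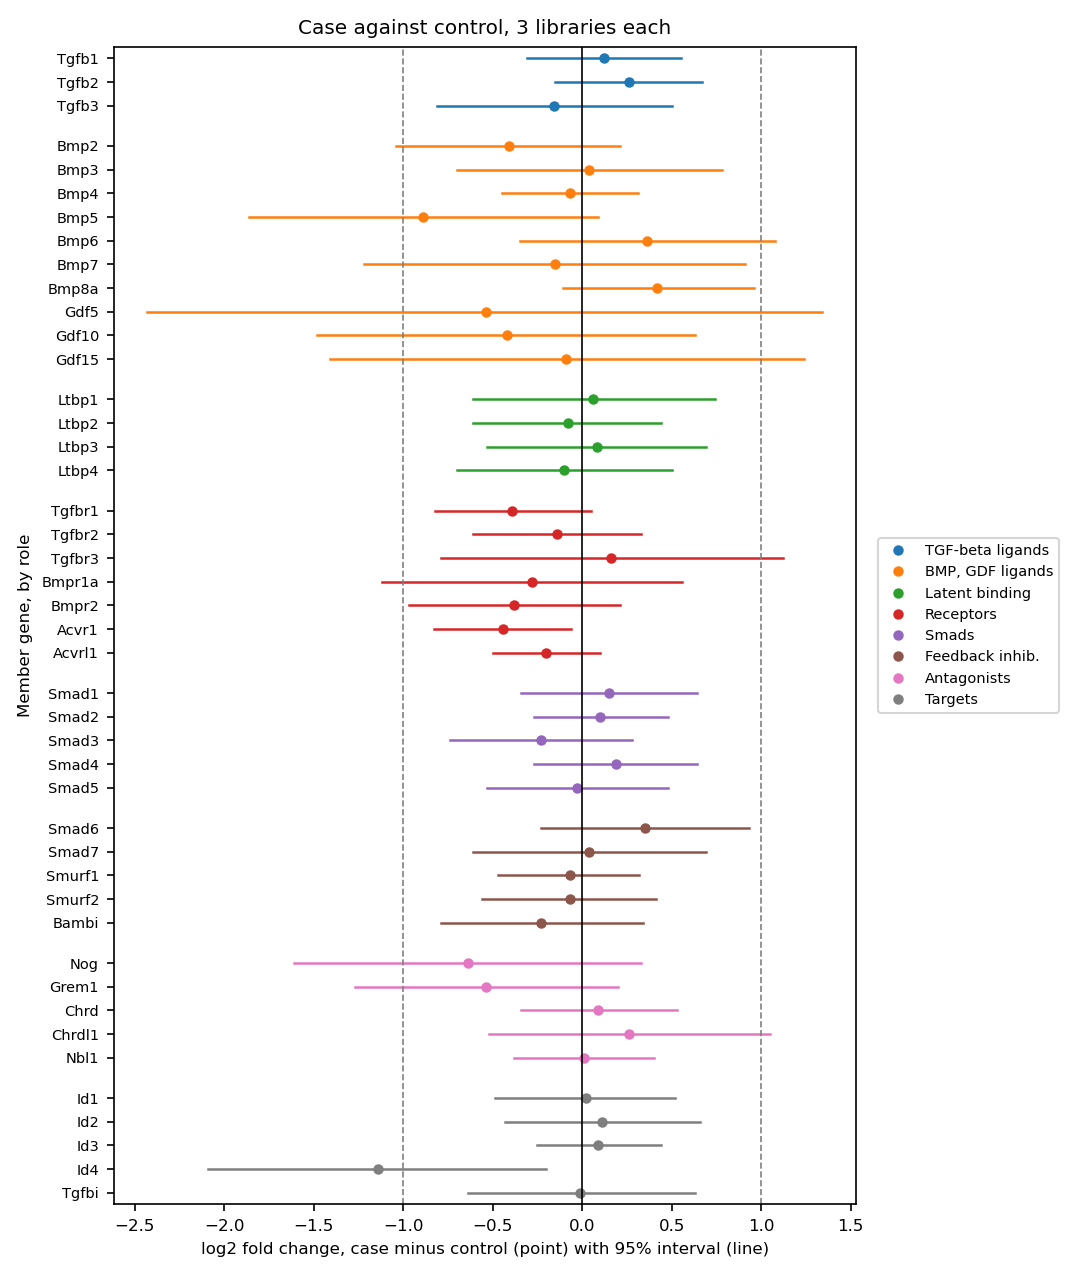
Log2 fold change (case minus control) of the 44 tested members with 95% intervals, coloured by role; dashed lines mark 2-fold. The intervals of Acvr1 and Id4 alone exclude 0, and 31 lie between the dashed lines.

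Of the TGF-beta ligands, Tgfb1, the isoform stored in bone matrix, was at 253, 319.8 and 322 CPM in case 5, 6 and 9 and at 229, 313 and 282 CPM in control 5, 6 and 10. The groups overlapped, and in both the library numbered 5 was the lowest. Its log2 fold change was 0.12 (SE 0.19, 95% interval -0.31 to 0.55). Tgfb2 was at 96.4, 86.9 and 94.8 CPM in case and at 96.9, 68.2 and 67.6 CPM in control. Here control 5 alone kept the groups from separating, and the log2 fold change was 0.26 (SE 0.18, interval -0.15 to 0.67). Without control 5 the groups did not overlap in 22.7% of members, beside 24.4% of all tested genes. Tgfb3 was at 50.4, 27.5 and 38.0 CPM against 57.3, 35.6 and 36.2 CPM, a log2 fold change of -0.16 (SE 0.28), with the highest level of each group in its library numbered 5.

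Bmp2, Bmp4 and Bmp7, the osteogenic BMPs, overlapped between the groups and were highest in the library numbered 5 of each. Bmp2, a strong inducer of bone formation, was at 27.5, 22.0 and 15.6 CPM in case 5, 6 and 9 and at 37.5, 25.0 and 24.3 CPM in control 5, 6 and 10. Case 5 lay within the control range, and the log2 fold change was -0.41 (SE 0.27, interval -1.04 to 0.21). Bmp4 was even across libraries, at 36.8, 35.7 and 36.3 CPM against 45.3, 36.6 and 32.3 CPM (log2 fold change -0.07, SE 0.16). Bmp7 ranged more widely within each group than between them, at 29.0, 20.9 and 12.0 CPM in case and 34.9, 22.8 and 11.0 CPM in control.

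Bmp5 was low, with 78, 65 and 24 counts in case and 82, 84 and 104 in control. This gave 6.23, 4.32 and 2.02 CPM against 7.18, 6.61 and 9.51 CPM, groups that did not overlap and had means of 4.19 ± 2.11 and 7.765 ± 1.53 CPM (SD, n = 3). The log2 fold change was -0.89 (SE 0.42, interval -1.86 to 0.09), with an edgeR Benjamini-Hochberg adjusted p of 0.999. It ran from -1.25 without case 5 to -0.56 without case 9. Bmp8a went the other way, at 51.4, 43.2 and 64.4 CPM in case and 50.2, 31.6 and 36.6 CPM in control, with a log2 fold change of 0.42 (SE 0.23, interval -0.11 to 0.96). Only control 5 reached into the case range.

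The remaining ligands overlapped between the groups. Bmp3, an abundant bone BMP that opposes the osteogenic ones, was at 24.75 to 58.6 CPM in case and 31.0 to 45.8 CPM in control. Bmp6 was at 13.6 to 25.25 against 10.8 to 17.4 CPM, and Gdf10, the relative of Bmp3, at 3.78 to 14.2 against 9.19 to 13.85 CPM. Gdf15, a divergent stress-induced member of the family, was at 1.68, 2.53 and 2.77 CPM in case and 4.73, 1.42 and 1.28 CPM in control, so that control 5 held the highest level. Its values rested on 14 to 54 counts per library. Gdf5, a joint-forming ligand, had 1 to 14 counts per library. Gdf6 was not tested: case held 1, 0 and 0 counts and control 0, 1 and 15, nearly all of them in control 10.

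The latent TGF-beta binding proteins, which tie latent TGF-beta to the fibrillin matrix, were high in the libraries numbered 5 of both groups in 3 of 4 genes. Ltbp3, needed for TGF-beta storage in bone, was at 386, 269 and 290.2 CPM in case 5, 6 and 9 and at 409, 255 and 231 CPM in control 5, 6 and 10, with a log2 fold change of 0.08 (SE 0.26). Ltbp1 was at 131, 96.5 and 70.6 CPM against 129, 82.6 and 73.85 CPM. Ltbp4 was at 77.7, 52.0 and 56.2 CPM against 90.25, 52.3 and 57.0 CPM (log2 fold change -0.10, SE 0.26). In these 3 genes both libraries numbered 5 lay above all of the other 4. Ltbp2, the member of the family that does not bind latent TGF-beta, had only case 5 high, at 96.9, 55.9 and 60.5 CPM against 73.2, 70.45 and 82.3 CPM (log2 fold change -0.08, SE 0.23).

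None of the 7 tested receptors passed. The fold change was negative in 6 of 7 (85.7%, beside 53.7% of all tested genes), with a median log2 value of -0.28 beside -0.02. Among the 8 roles this was the highest share and the lowest median, and the other shares ran from 33.3% to 70%. It was not particular to these receptors. In the further pathway genes given below, 7 of 8 tested receptors and coreceptors were negative (87.5%, median log2 value -0.15). Of the further ligands 6 of 7 were negative (85.7%, median log2 value -0.32). Acvr1, a BMP type I receptor whose activating mutation causes ectopic bone formation, was at 36.8, 29.7 and 33.0 CPM in case 5, 6 and 9 and at 46.8, 38.3 and 50.3 CPM in control 5, 6 and 10. The groups, with means of 33.2 ± 3.58 and 45.1 ± 6.14 CPM (SD, n = 3), did not overlap. Its log2 fold change was -0.44 (SE 0.16, interval -0.83 to -0.06), with an unadjusted p of 0.029 and an adjusted p of 0.999 in edgeR. The value ran from -0.52 without control 6 to -0.32 without control 10, and the unadjusted p was up to 0.136 in these edgeR fits. Scaling by library totals left it above the unadjusted 0.05.

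Acvrl1, a type I receptor of the endothelium, was steady within groups that did not overlap, at 46.7, 43.3 and 43.0 CPM in case and 52.9, 47.4 and 52.4 CPM in control. The log2 fold change was -0.20 (SE 0.13, interval -0.50 to 0.10). The 6 endothelial markers, all detected in every library, summed to 362 to 472 CPM in case and 463 to 517 CPM in control, and their part in the Acvrl1 values was not tested. In bulk tissue fewer cells of a type and less RNA per cell cannot be told apart.

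Tgfbr1, the TGF-beta type I receptor kinase, was at 49.5, 36.7 and 37.7 CPM in case and 64.0, 47.6 and 50.2 CPM in control. Only case 5 reached into the control range, and the log2 fold change was -0.39 (SE 0.19, interval -0.82 to 0.05). Without case 5 the groups did not overlap in 31.8% of members, beside 28.9% of all tested genes. Bmpr2, the BMP type II receptor, also had case 5 alone within the control range, at 56.3, 33.1 and 33.5 CPM against 64.2, 45.3 and 50.45 CPM. Bmpr1a, a BMP type I receptor, was at 22.3 CPM in case 5 but at 9.85 and 8.83 CPM in case 6 and 9, against 15.8, 16.1 and 17.9 CPM in control. Case 5 lay above all controls and the other case libraries below them. Tgfbr2, the type II receptor of TGF-beta, was at 262 to 403 CPM in case and 332 to 379.5 CPM in control, and the coreceptor betaglycan, Tgfbr3, at 14.6 to 39.2 against 18.0 to 36.4 CPM. Bmpr1b, the remaining BMP type I receptor, could not be tested, with 1, 1 and 0 counts in case and 0 in each control. By counting error alone, a 0 leaves room for 3 counts, which is 0.2 to 0.274 CPM. The housekeeping gene Hprt1 was also at 0 in case 5, control 5 and control 6, so a 0 in the table bounds no expression level.

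**Figure D2:**
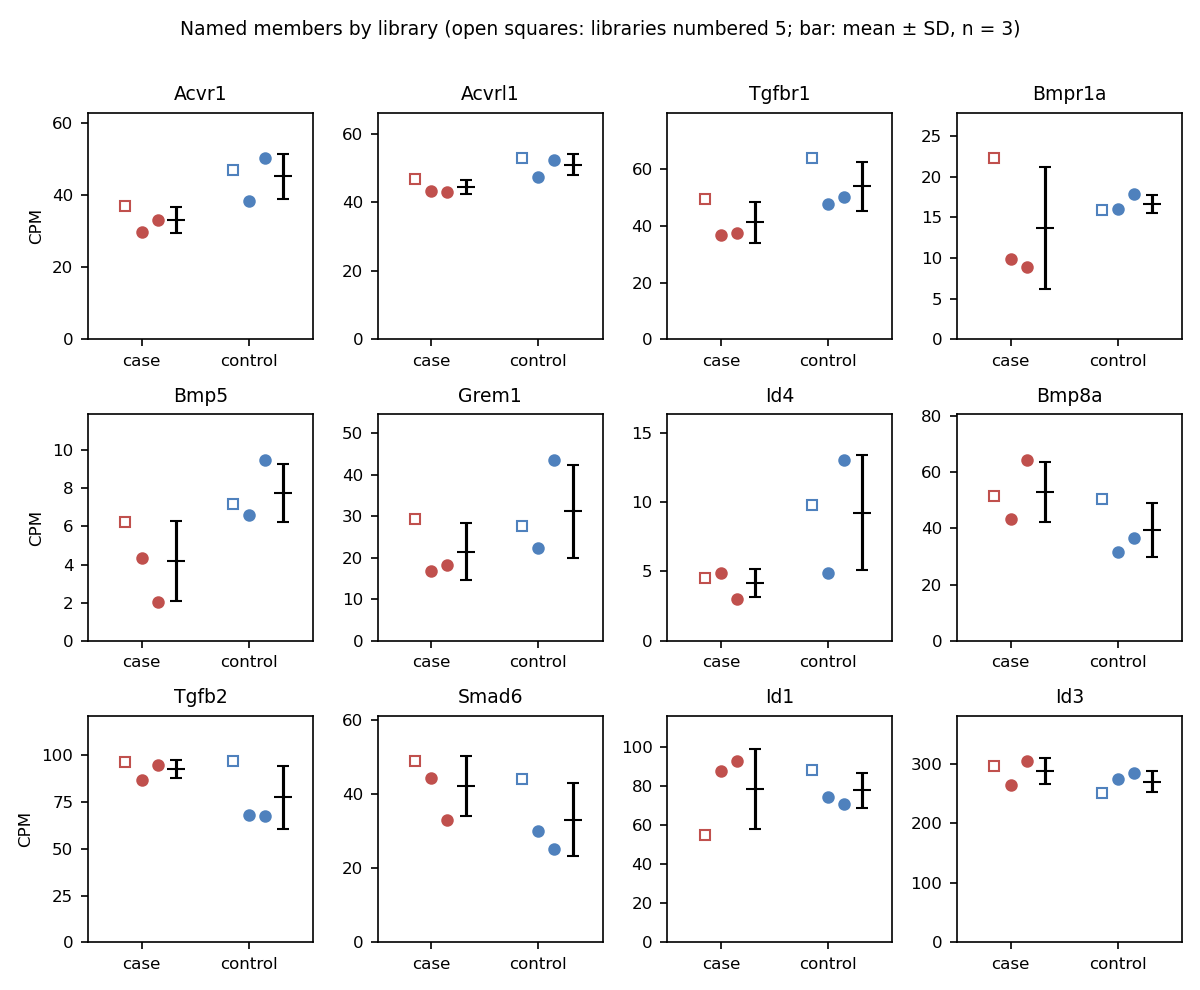
CPM of 12 members by library in case and control, with mean ± SD (n = 3) as bars and the libraries numbered 5 as open squares. Acvr1, Acvrl1 and Bmp5 have groups that do not overlap, while in Bmpr1a, Tgfb2 and Id1 a library numbered 5 lies away from the others of its group.

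None of the 5 tested Smads that carry the signal passed. Smad3, which carries TGF-beta signals, was at 70.7, 52.1 and 44.9 CPM in case 5, 6 and 9 and at 71.25, 52.1 and 72.9 CPM in control 5, 6 and 10, a log2 fold change of -0.23 (SE 0.22). Smad4, the shared partner, was at 57.3, 40.8 and 36.2 CPM against 38.5, 41.1 and 38.4 CPM (0.19, SE 0.19 on the log2 scale), with case 5 the one library away from the others. Smad1, a BMP Smad, was at 32.4, 23.6 and 22.1 CPM against 25.6, 19.4 and 25.6 CPM (0.15, SE 0.21). Smad2 lay between 23.1 and 31.0 CPM in all 6 libraries. Smad5, the other tested BMP Smad, lay at 68.7 to 70.3 CPM in the controls and 50.9 to 91.1 CPM in case. Smad9 had 13, 1 and 1 counts in case and 4, 4 and 0 in control, too few to test.

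None of the 5 feedback inhibitors passed. Smad6, which blocks BMP receptors and Smad1, was at 49.0, 44.6 and 33.2 CPM in case and 44.1, 30.2 and 25.2 CPM in control, a log2 fold change of 0.35 (SE 0.25, interval -0.23 to 0.93). Within each group the library numbered 5 was the highest. Smad7, which blocks both branches and is itself induced by TGF-beta, was at 44.5, 34.6 and 29.6 CPM against 49.2, 31.8 and 24.9 CPM (0.04, SE 0.28). Bambi was at 138, 80.0 and 98.2 CPM against 121, 149.7 and 99.1 CPM (-0.23, SE 0.24), with control 6 the highest. Of the ubiquitin ligases that remove receptors and Smads, Smurf1 was at 57.3, 57.5 and 47.75 CPM against 66.9, 48.6 and 55.8 CPM (-0.07, SE 0.17), and Smurf2 lay between 41.3 and 66.8 CPM.

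Among secreted antagonists, Grem1 and Nog, which bind BMPs away from their receptors, had the smallest unadjusted p. Grem1 was at 29.4, 16.8 and 18.3 CPM in case and 27.7, 22.3 and 43.7 CPM in control, where control 10 stood highest. Its log2 fold change was -0.54 (SE 0.32, interval -1.27 to 0.20) and -0.18 without control 10. Nog rested on 28 to 90 counts per library, at 3.20, 4.32 and 2.35 CPM against 7.88, 3.62 and 3.93 CPM. Control 5 held the highest level, and the log2 fold change of -0.64 (SE 0.41) was -0.19 without it. Chrdl1, a chordin-like BMP antagonist, was at 16.9, 18.9 and 9.75 CPM against 8.40, 12.9 and 16.6 CPM (0.26, SE 0.34). Chrd, chordin itself, lay within 14.6 to 19.2 CPM in all libraries, and Nbl1, an antagonist of the DAN family, within 240.1 to 302.5 CPM.

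None of the 5 targets passed, and Id3 varied least among them. Id3 was at 296, 264 and 305 CPM in case 5, 6 and 9 and at 251, 274 and 285 CPM in control 5, 6 and 10. The whole spread over 6 libraries was 1.21-fold, and the log2 fold change was 0.09 (SE 0.15, interval -0.25 to 0.44). Id1, a standard readout of BMP signalling, was at 55.1, 87.9 and 92.7 CPM against 88.15, 74.2 and 70.9 CPM. Case 5 was the lowest of all and case 9 the highest, and the log2 fold change was 0.02 (SE 0.22, interval -0.49 to 0.52). Id2 was at 31.9, 56.9 and 35.5 CPM against 37.5, 41.2 and 36.2 CPM (0.11, SE 0.23), with case 6 standing out. Tgfbi was at 138 to 263 CPM in case and 154 to 234 CPM in control.

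Id4 had the most negative fold change of the members. It had 57, 74 and 36 counts in case and 112, 62 and 143 in control, or 4.55, 4.92 and 3.03 CPM against 9.80, 4.88 and 13.1 CPM. The means were 4.17 ± 1.01 and 9.25 ± 4.12 CPM (SD, n = 3). Control 5 and control 10 lay above every case library, while control 6 was level with case 6. The log2 fold change was -1.14 (SE 0.40, interval -2.09 to -0.20), with an unadjusted p of 0.0238 and an adjusted p of 0.999 in edgeR. It ran from -1.43 without control 6 to -0.78 without control 10, where the unadjusted edgeR p was 0.112.

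Many members were high in both libraries numbered 5, across the groups. In 16 of the 44 members (36.4%) both libraries numbered 5 lay above all of the other 4, beside 20.0% of all tested genes, and in 1, Tgfb1, both lay below (2.27%, beside 17.8%). Of the 73 further pathway genes given below, both lay above in 25 (34.2%) and below in 5 (6.85%). The median member stood 0.24 (case 5) and 0.21 (control 5) above its mean over the 6 libraries on the log2 scale, and between -0.19 and 0.00 in the other 4. The same median over all tested genes lay between -0.01 and 0.03. By mean level, Bmp7 was 1.92-fold and Tgfbr3 1.91-fold higher in the libraries numbered 5, Ltbp1, Ltbp3 and Ltbp4 1.52-fold to 1.61-fold, and Smad7 1.55-fold. Of the 5 targets none had both libraries numbered 5 above the others. The ratio of mean levels was 0.879 for Id1, 0.817 for Id2, 0.789 for Tgfbi, 0.970 for Id3 and 1.11 for Id4. No test is given, because the number 5 was picked with the separation of these libraries known.

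Several marker sums differed with the same number. Besides tooth-forming markers, cartilage markers summed to 102.6 and 198 CPM in case 5 and control 5 against 34.3 to 58.0 CPM elsewhere, with 1 of 5 at 0 in case 5, case 6 and control 5. The 5 osteoclast markers in the table summed to 4257 and 4235 CPM against 5813 to 7773 CPM. Neutrophil markers summed to 6807 and 5491 CPM against 12890 to 17610 CPM, with 1 of 5 at 0 in each library but case 5, and skeletal muscle markers to 100.3 and 8.84 CPM against 332 to 1121 CPM. Osteocyte markers summed to 4555 and 5766 CPM against 3423 to 4379 CPM, and macrophage markers to 772.9 and 730.4 CPM against 908.9 to 1090 CPM, with all those in the table detected in every library. Not every marker of a list separated. Of cartilage markers, both libraries numbered 5 lay above the others in Acan, Col2a1 and Sox9, not in Comp or Matn1. Col2a1 alone gave 151.5 CPM of the control 5 cartilage sum. Of neutrophil markers they lay below the others in S100a8, S100a9 and Elane, not in Mpo or Ltf. Of skeletal muscle markers they lay below the others in all but Myh4. Both libraries numbered 5 lay above the others in Phex but not in Dmp1, Mepe or Sost. Of macrophage markers they lay below the others in Cd68 and Csf1r, not in Cd163 or Mrc1. Of osteoclast markers they lay below in Ctsk and Acp5, not in Mmp9, Dcstamp or Atp6v0d2. The part of cell content in the member values was not tested.

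**Figure D3:**
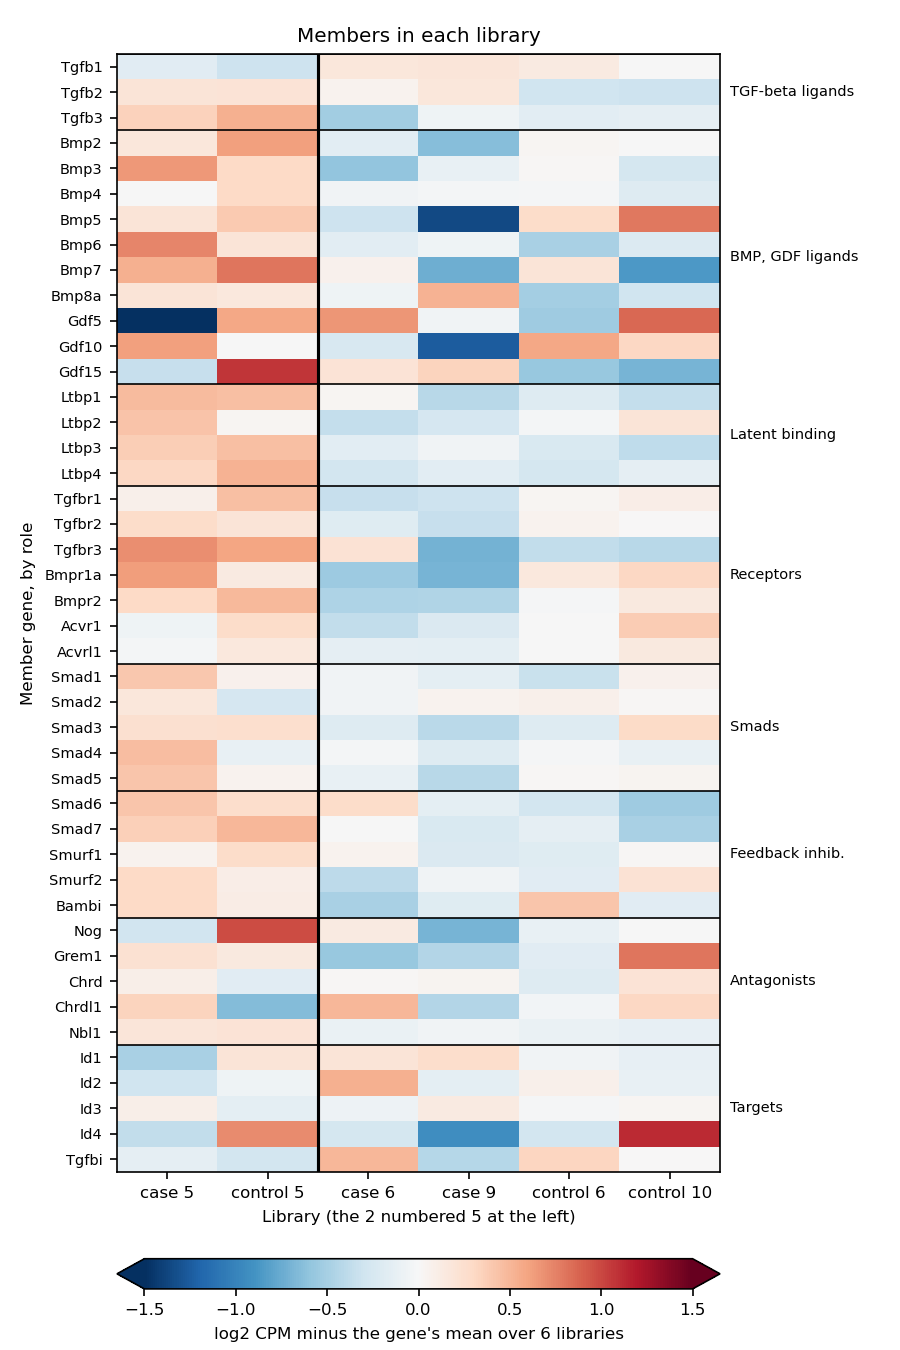
Log2 CPM of each tested member minus its mean over the 6 libraries (colour), by role, with both libraries numbered 5 in the left columns. In 16 members, among them 3 of 4 latent binding proteins and 5 of 10 BMP and GDF ligands, both left columns are above the other 4, and in Tgfb1 both are below.

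With the libraries numbered 5 left out, the comparison of 2 case with 2 control libraries had 13 of 44 members (29.5%) at an unadjusted edgeR p of 0.05, beside 14.1% of all tested genes. None passed after adjustment, as 0 of 16298 genes did, and the smallest Benjamini-Hochberg adjusted p of a member was 0.219 (Bmpr1a). The 8 lower in case were Bmp5, Gdf10, Ltbp2, Grem1 and the receptors Tgfbr1, Bmpr1a, Bmpr2 and Acvr1, and the 5 higher in case were Tgfb2, Bmp8a, Gdf15, Smad6 and Id1. Their log2 fold changes were -0.82 (SE 0.20) for Bmpr1a, -0.48 (SE 0.13) for Bmpr2 and -0.36 (SE 0.12) for Tgfbr1, and 0.46 (SE 0.12) for Tgfb2, 0.53 (SE 0.20) for Smad6 and 0.36 (SE 0.11) for Id1. The other Id genes were at -1.12 (Id4, SE 0.53), 0.06 (Id3, SE 0.14) and 0.30 (Id2, SE 0.24). These 13 genes, and the other Id genes in this fit, were named after their values were seen.

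Other ways of setting these libraries aside gave fewer members. With the number 5 as a covariate 6 of 44 members (13.6%) had an unadjusted edgeR p of 0.05, beside 8.59% of all tested genes, and all 6 were lower in case: Bmp2, Bmp5, Tgfbr1, Bmpr2, Acvr1 and Id4. Without case 5 alone, 9 of 44 (20.5%) did, beside 9.54% of all genes, again all lower in case. Without control 5 alone it was 3 of 44 (6.82%), beside 7.32% of all genes, and these 3, Tgfb2 (0.45, SE 0.14), Bmp8a (0.64, SE 0.21) and Smad6 (0.61, SE 0.22 on the log2 scale), were higher in case. For members high in both libraries numbered 5, leaving out case 5 alone lowers the case mean and leaving out control 5 alone the control mean. Among the 9 only Bmpr2, and among the 3 only Tgfb2, had both libraries numbered 5 above all the others. The part of these libraries in the split was not tested. Acvr1, Bmp5, Tgfbr1 and Bmpr2 were among the members in the fits without both, with the covariate and without case 5, which share libraries. Without control 5 their unadjusted edgeR p was 0.0674, 0.0918, 0.235 and 0.434. The smallest adjusted edgeR p of a member was 0.493 with the covariate, 0.481 without case 5 and 0.583 without control 5.

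**Figure D4:**
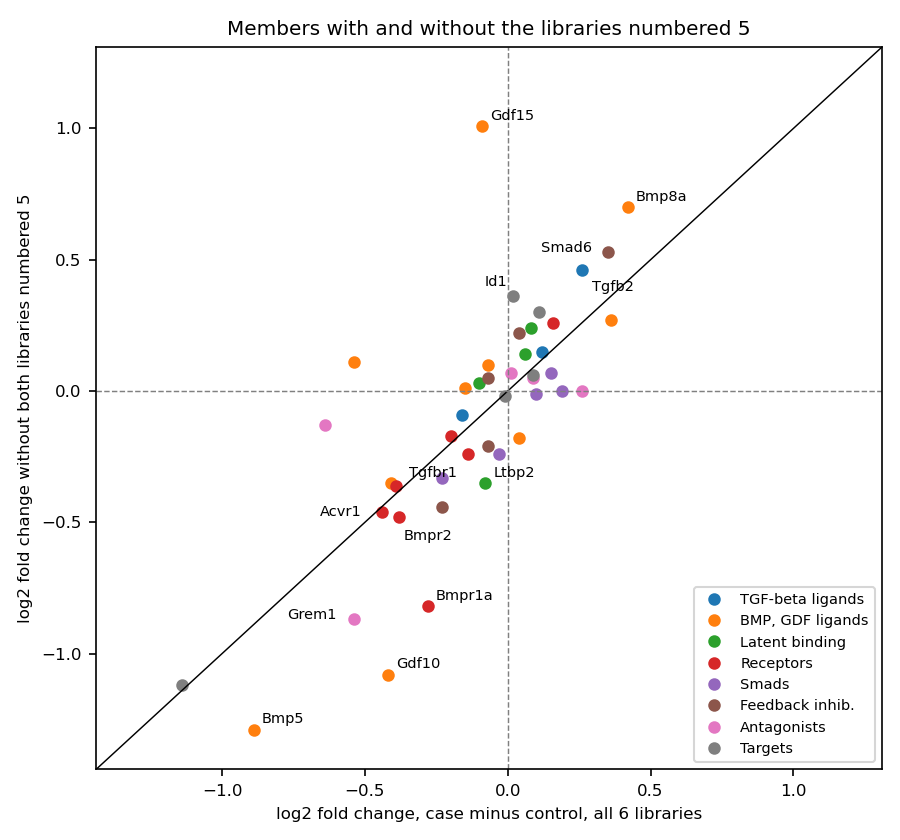
Log2 fold change (case minus control) of each tested member from all 6 libraries (horizontal) and from the 4 libraries not numbered 5 (vertical), coloured by role; the line marks equal values. Names mark the 13 members at an unadjusted edgeR p of 0.05 in the smaller comparison. Gdf15, at 14 to 38 counts per library there, moves from -0.09 to 1.01.

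A list of 92 further genes of the pathway, of which 90 had a row and 73 were tested, was read from the same fit. None passed, with a smallest edgeR Benjamini-Hochberg adjusted p of 0.999, and the fold change was negative for 50 of 73 (68.5%, beside 53.7% of all tested genes), the median log2 value being -0.14 beside -0.02. At an unadjusted p of 0.05 there were 2 lower (Inhba and Hfe2) and 1 higher in case (Kcp), 4.11% of the list beside 4.15% of all genes. The count was 16 (21.3%, beside 9.54% of all genes) without case 5 and 9 (11.8%, beside 7.32%) without control 5. Inhba, the activin A subunit, was at 13.7, 11.0 and 12.4 CPM in case and 20.3, 24.6 and 26.6 CPM in control (log2 fold change -0.94, SE 0.19). Kcp, a kielin and chordin-like protein that enhances BMP signalling, was at 5.59, 4.86 and 5.97 CPM against 2.45, 1.89 and 2.38 CPM (1.29, SE 0.29). Both had groups that did not overlap, as did Klf10 among the target genes, together 4.11% of the list beside 8.47% of all tested genes.

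Hfe2, the BMP coreceptor hemojuvelin, was at 0.959, 0.532 and 1.51 CPM in case and 0.438, 8.66 and 8.68 CPM in control (log2 fold change -2.57, SE 0.95). Skeletal muscle, which expresses it, had marker sums of 100.3, 332 and 1121 CPM in case and 8.84, 898 and 919 CPM in control, all 6 markers being detected in every library, and their part was not tested. Next on the lower side stood Tsku, a secreted proteoglycan that binds BMPs (-0.40, SE 0.20), and Klf10, an early target of TGF-beta (-0.27, SE 0.13). On the higher side stood Nrros, an anchor of latent TGF-beta on myeloid cells (0.39, SE 0.19), the BMP-induced homeobox gene Dlx5 (0.29, SE 0.24) and Sost, also on the osteocyte marker list, which encodes sclerostin (0.49, SE 0.40). All of these are log2 fold changes.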

How the data were processed

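RNA was measured in 6 libraries of rat alveolar tissue, made with an Ion Torrent total RNA kit and read from one end, per the labels' protocols. The values are raw counts per gene as deposited by the authors in 1 table. The sources used here do not name the aligner, counter, genome build or annotation, or whether strand was used, so overlapping, antisense and near-identical genes may share counts.

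Counts were tested with edgeR 4.0.16 (R 4.3.3) on all genes together: filterByExpr, TMM scaling, glmQLFit and glmQLFTest, case against control, with Benjamini-Hochberg adjustment over 16066 genes at 0.05. The 95% intervals of the log2 fold change come from the same fit. Library totals of 10886303 to 14433740 counts put 3 counts at 0.2 to 0.274 CPM. Alternatives were other scalings, filters, DESeq2 1.42.0, limma 3.58.1 (voom), a robust fit, leaving out libraries, the title number as a block and the number 5 as a covariate. The fitting code was tested on simulated data.

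The members and lists were chosen with earlier results of these data known. Fold changes were printed for up to 3 members of each of 8 roles with the smallest unadjusted p, for Tgfb1, Bmp2, Bmp4, Id1 and Smad7, and for the 4 other pathway genes of smallest unadjusted p in each direction. Library values were printed for any member. Fold changes in the fits that set the libraries numbered 5 aside (among them Bmpr1a, Bmpr2 and Gdf15), and values of members that changed sign, fall outside this rule and were chosen after the values were seen.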

Additional observations from a re-analysis of the deposited data

How the results depend on the processing

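The count of members called was 0 in every alternative run, also at an adjusted p of 0.1. Over all genes the count called was 21 by DESeq2 and 0 to 2 when 1 library was left out (2 without control 5). Members at an unadjusted p of 0.05 numbered 1 with library totals (2.27%, beside 4.03% of all genes). The title number as a replicate block also gave 1, Chrdl1 (2.27%, beside 4.06%). There were 6 with number 5 as a covariate (13.6%, beside 8.59%) and 13 without both libraries numbered 5 (29.5%, beside 14.1%). With 1 library left out there were 0 to 9 (0% to 20.5%, beside 2.23% to 9.54%). Members whose groups did not overlap numbered 1 with library totals (2.27%, beside 8.07% of all genes), 22 of 44 without both libraries numbered 5 (beside 46.8%) and 3 to 14 with 1 left out (6.82% to 31.8%, beside 13.9% to 28.9%). Other pathway genes at that p numbered 9 with the covariate (12.3%, beside 8.59% of all genes), 18 without both (24.7%, beside 14.1%) and 2 to 16 with 1 left out (2.6% to 21.3%, beside 2.23% to 9.54%). Fewer libraries leave fewer values that can overlap; other causes were not tested. The labels do not tie equal numbers together, and deviations of the pairs numbered 5 and 6 correlated at 0.38 and 0.136 across genes. Case 9 and control 10 have no library of the same number, so under the block the fold change rests on the pairs numbered 5 and 6.

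With 1 library left out, 24 of 44 members kept their sign. Of the 44 members 9 changed sign under the block and 9 without both libraries numbered 5. The block compares the pairs numbered 5 and 6 alone. Among the members whose fold change the rule prints, those under the block were 0.04 (Ltbp2), 0.00 (Ltbp3), -0.01 (Smad7), 0.01 (Smurf1) and -0.21 (Id1). Without both libraries numbered 5 they were 0.10 (Bmp4), 0.03 (Ltbp4), 0.00 (Smad4) and 0.05 (Smurf1). The others were Bmp3, Smad5, Nbl1 and Tgfbi (-0.12, 0.12, -0.01 and 0.16) under the block, and Bmp3, Bmp7, Gdf5, Gdf15 and Smad2 (-0.18, 0.01, 0.11, 1.01 and -0.01) without both. Id1 was at -0.02 with voom and -0.01 with the covariate. With 1 library left out the ranges were -0.37 to 0.11 for Tgfb3, -0.14 to 0.08 for Bmp4, -0.34 to 0.06 for Ltbp2, -0.07 to 0.38 for Ltbp3, -0.27 to 0.18 for Ltbp4, -0.01 to 0.25 for Smad1, 0.00 to 0.32 for Smad4, -0.12 to 0.36 for Smad7, -0.15 to 0.06 for Smurf1, -0.12 to 0.24 for Id1 and -0.19 to 0.30 for Id2. The median over members ran from -0.16 (without case 5) to 0.04 (without control 5). Depth limits Gdf5, Gdf6, Bmpr1b and Smad9 most.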
